A study of Mus musculus with 6 samples.

Results

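The genes described here mark resting and central T cells, those that recirculate through lymphoid organs and have not taken on an effector state. The set has 9 members of the 32090 genes in the deposited count table, their rows found by gene symbol alone. The choice of the members was made with earlier results of these data known. They were not selected by a measured value. The members are the transcription factors Tcf7, Lef1, Bach2, Satb1, Klf2, Foxo1 and Foxp1 and the G protein-coupled receptors Ccr7 and S1pr1. The label describes where these genes are best known and was not treated as a finding about the sorted cells, which are regulatory T cells (Treg cells) of a tissue.

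TCF1 (encoded by Tcf7) and LEF1 are related DNA-binding proteins of the HMG-box type that keep naive and memory-like T cells in a less differentiated state. FOXO1 is kept in the nucleus when PI3K and AKT signalling is low, and there it drives Klf2, Ccr7 and other genes of lymphoid homing, while KLF2 in turn activates S1pr1. S1PR1 guides lymphocytes out of tissues towards sphingosine-1-phosphate in blood and lymph, and CCR7 guides them to CCL19 and CCL21 in lymphoid tissue. In Treg cells these genes are known from the central type found in spleen and lymph nodes, and most are known to be lower in the effector type that settles in the gut wall.

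RNA from flow-sorted live CD45+ CD4+ Foxp3+ cells was sequenced in bulk, the cells coming from the lamina propria of the colon of untreated mice labelled C57/BL6. The WT group had the genotype Foxp3YFP-Cre, in which Cre recombinase is made from the Foxp3 gene together with a yellow fluorescent protein, and the KO group had Il23rflflFoxp3YFP-Cre, in which the same Cre acts on floxed alleles of the interleukin-23 receptor. Both groups thus carried the Cre, and no library of mice without it was part of the comparison, which asks what loss of the receptor in Foxp3-expressing cells changes. Each group had 3 libraries, and each library was a pool of at least 5 mice, and their age was not given in the sources used here.

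Total estimated counts ran from 9680503 to 20654340 per library. Il23r (Entrez 209590), the targeted gene, had levels of 13.6 to 38.3 CPM (counts relative to the TMM-scaled library size) over the WT libraries and of 4.99 and 8.96 CPM in KO2 and KO3, while the library labelled KO1, with 18.4 CPM, lay inside the WT range. A count over the whole gene does not show whether the floxed part was lost. EdgeR called 3 genes between the groups, Xist, Fcgbp and Ctse. They were picked out with their values known, by a fit that held the library labelled KO1 in the KO group. That this library lay with the other KO libraries in each thus does not show its genotype. Ctse, which encodes the protease cathepsin E, had 144 to 167 CPM over the WT libraries against 5.17 CPM in the library labelled KO1, 15.8 CPM in KO2 and 13.4 CPM in KO3 (edgeR, adjusted p = 0.0204). Foxp3 stood at 1043 ± 425 CPM in WT against 1365 ± 239 CPM in KO (SD, n = 3 each). The 9 listed Treg identity genes, which include those of the sort, all passed the filter on low counts. Of these 0 were called, against 0.0239% of all genes. The groups lay apart with KO above in 1 and with KO below in 1, against 9.68% and 8.01% of all genes. Xist, made from the inactive X chromosome of female cells, ranged from 1182 to 3472 CPM over the KO libraries and from 0 to 0.284 CPM over the WT libraries, and the KO libraries also differed among themselves in Y-linked genes. Kdm5d had 46.8 to 87.7 CPM over the WT libraries against 48.0, 0.913 and 21.5 CPM in the KO libraries, in order, and Ddx3y 113 to 232 CPM against 58.0, 0.122 and 27.0 CPM. The library labelled KO1 and KO3 thus held RNA of Xist and of Y-linked genes, and the sex of the pooled mice and the genotype cannot be told apart. WT2 had an RNA integrity number of 5 against 7.9 to 8.8 elsewhere. Sort batch A held WT1 and the library labelled KO1, batch B held WT2 and WT3, and KO2 and KO3 each had a batch of their own. KO2 and KO3 were the closest pair of libraries, with a Pearson r of 0.97 over log2 CPM across genes against 0.83 to 0.91 for the other 14 pairs. Nothing beyond the pool labels says how independent the libraries are, and p-values measure the spread between them.

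One promoter is shown because the path that leads to it is part of the results below. Klf2 (chromosome 8) is switched on by the kinase ERK5 (Mapk7) through transcription factors of the MEF2 family. The 250 bases before its annotated start (RefSeq, GRCm38.p6, chr8:72318812-72319061, plus strand) hold the MEF2 motif CTAAATTTAG, printed in capitals, 118 bases before the start.
Klf2 promoter: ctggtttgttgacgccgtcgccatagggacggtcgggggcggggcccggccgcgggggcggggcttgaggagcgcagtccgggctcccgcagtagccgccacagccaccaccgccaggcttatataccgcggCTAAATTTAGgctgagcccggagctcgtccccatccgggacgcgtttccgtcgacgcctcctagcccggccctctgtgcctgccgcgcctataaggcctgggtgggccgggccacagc
The motif reads the same on both strands, and 13 of 32851 windows of this length (0.0396%) held it. Only this exact string was searched, and it is longer than the motifs that follow, so their shares cannot be set side by side. RefSeq windows were matched for 7 of the 9 genes, 17 windows in all, the others being Ccr7 and S1pr1. The motif was found in 1 of the 17. A forkhead motif (GTAAACA, both strands) was in 0 of the 17 windows and in 3.17% of all windows, and a TCF/LEF motif (ATCAAAG, both strands) in 0 of the 17 and in 3.21% of all. A match is a description of letters and not of a bound site.

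All 9 genes were measured in every library and passed the filter on low counts. None was called between KO and WT by edgeR's quasi-likelihood test (adjusted p from 0.603 for Foxo1 to 0.999 for Bach2), against 0.0239% of the 12557 genes tested, 0.0159% called higher and 0.00796% called lower in KO. At an unadjusted p under 0.05 the count was 0 of 9 against 9.37% of all genes, and 0 of 9 were called by limma-voom and by DESeq2, which called 1.89% of the genes it adjusted. In each of the 9 genes the groups overlapped, whereas 17.7% of all genes did not, 9.68% with KO above and 8.01% with KO below. Of the 9 log2 fold changes 3 were above 0, and their median was -0.23, where 47.4% of all genes were above 0 and the median was -0.04. In a bulk sample, fewer cells that use a gene and less RNA per cell cannot be told apart.

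**Figure D1:**
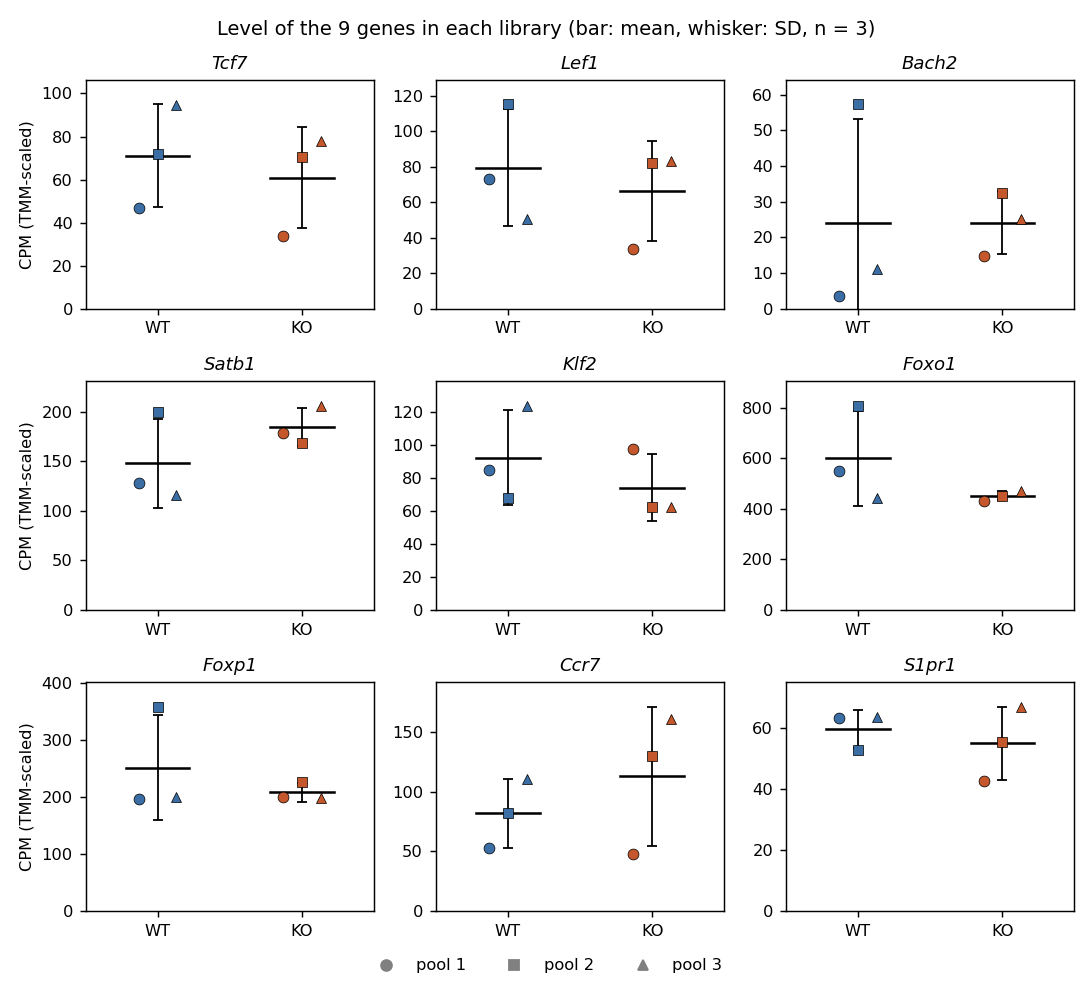
Level of each gene in CPM (TMM-scaled, vertical axis from 0) in the 3 WT and 3 KO libraries, with the mean as a bar and the SD as a whisker; the lower whisker of Bach2 in WT would end below 0 and is not drawn past it. The groups overlap in all 9 genes, and WT2 (the WT square) lies above the other 5 libraries in Lef1, Bach2, Foxo1 and Foxp1.

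Tcf7 (Entrez 21414), which encodes TCF1, had 46.7, 71.9 and 94.5 CPM in WT1, WT2 and WT3, 34.0 CPM in the library labelled KO1, and 70.5 CPM in KO2 and 78.0 CPM in KO3. The pools of each group differed by over a factor of 2, and the low ones were WT1 and the library labelled KO1, those of sort batch A. KO over WT gave a log2 fold change of -0.23 (SE 0.37, 95% interval -1.05 to 0.60, edgeR, adjusted p = 0.883). The value turned to 0.05 without the library labelled KO1 and to 0.04 without WT3.

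Lef1 (Entrez 16842), whose product shares the HMG-box type of TCF1, had 72.8, 115 and 50.6 CPM in WT1 to WT3 against 33.5, 82.3 and 83.0 CPM in the KO libraries, in the same order. The library labelled KO1 was the lowest of the 6 and WT2 the highest. Its log2 fold change was -0.26 (SE 0.40, 95% interval -1.17 to 0.64, edgeR, adjusted p = 0.872). Without the library labelled KO1 it was 0.05 and without WT2 0.09, so that its sign rests on these libraries.

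Bach2 (Entrez 12014) encodes a repressor that restrains effector genes in T cells. Its WT levels of 3.58, 57.4 and 11.3 CPM, from WT1 to WT3, rested on 38, 558 and 199 counts, and the KO libraries had 14.8, 32.4 and 25.1 CPM. The 16-fold range within WT enclosed all KO values, which ranged 2.18-fold. The WT mean of 24.1 ± 29.1 CPM and the KO mean of 24.1 ± 8.81 CPM (SD, n = 3) gave a log2 fold change of 0.01 with a 95% interval of -1.82 to 1.83 (edgeR, adjusted p = 0.999), which allows anything from a 0.284-fold to a 3.55-fold level in KO. The value was 1.67 without WT2, the library of low RNA integrity, and -0.50 without WT1.

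Satb1 (Entrez 20230) encodes a chromatin organiser that is needed early in Treg development and restrained in mature Treg cells. The WT libraries had 128, 199.6 and 116 CPM and the KO libraries 179, 169 and 206 CPM. Only WT2 reached into the KO range. A log2 fold change of 0.32 (SE 0.24, 95% interval -0.23 to 0.87, edgeR, adjusted p = 0.706) was found, which became 0.59 without WT2, still not called.

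Foxo1 (Entrez 56458), an activator of Klf2 and Ccr7, had 548.5, 809 and 442 CPM from WT1 to WT3 against 433, 453 and 472 CPM in KO. The KO libraries lay within 1.09-fold of each other and the WT libraries within 1.83-fold, with WT3 inside the KO range. KO over WT stood at -0.41 on the log2 scale (SE 0.23, 95% interval -0.93 to 0.12, edgeR, adjusted p = 0.603) and at -0.14 without WT2.

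Foxp1 (Entrez 108655), a forkhead factor that maintains naive T cell quiescence and binds DNA along with FOXP3 in Treg cells, had 198, 359 and 200.4 CPM in WT against 199.9, 227 and 198 CPM in KO. All libraries but WT2 lay between 198 and 227 CPM. The log2 fold change of -0.27 (SE 0.26, 95% interval -0.85 to 0.30, edgeR, adjusted p = 0.764) became 0.05 without WT2.

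Klf2 (Entrez 16598), the zinc-finger factor whose promoter is printed above, had 84.7, 68.0 and 123.9 CPM in WT against 97.7, 62.1 and 62.6 CPM in KO. Here the library labelled KO1 was the high one of its group and WT2 the low one. The log2 fold change was -0.32 (SE 0.30, 95% interval -0.98 to 0.35, edgeR, adjusted p = 0.764), with -0.58 when the library labelled KO1 was left out and -0.04 when WT3 was.

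Ccr7 (Entrez 12775) had 52.9, 81.7 and 110.9 CPM in WT against 48.2, 129.8 and 160.6 CPM in KO. WT1 and the library labelled KO1 were the lowest, as for Tcf7, and KO2 and KO3 the highest. The log2 fold change was 0.46 (SE 0.43, 95% interval -0.50 to 1.42, edgeR, adjusted p = 0.759), which was 0.82 without the library labelled KO1 and 0.13 without KO3. S1pr1 (Entrez 13609) had 63.2, 52.6 and 63.5 CPM in WT against 42.8, 55.2 and 66.8 CPM in KO, the narrowest range of the 9 genes at 1.56-fold over the 6 libraries. The log2 fold change was -0.12 (SE 0.26, 95% interval -0.70 to 0.45, edgeR, adjusted p = 0.912) and turned to 0.02 without the library labelled KO1.

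An exact two-sided permutation test on the CPM values of single genes gave p from 0.3 for Satb1 and Foxo1 to 1 for Bach2, where 3 libraries against 3 cannot give less than 0.1. The upper bounds of the 95% intervals were 1.09-fold for Foxo1, 1.23-fold for Foxp1 and 1.27-fold for Klf2, so a larger rise in KO lay outside the interval of these 3, while Ccr7 allowed up to 2.67-fold. The lower bounds were 0.525-fold for Foxo1, 0.617-fold for S1pr1 and 0.856-fold for Satb1. Within sort batch A, which alone held both genotypes, the log2 difference between the library labelled KO1 and WT1 was 2.01 for Bach2, 0.48 for Satb1, 0.21 for Klf2, 0.02 for Foxp1, -0.13 for Ccr7, -0.34 for Foxo1, -0.45 for Tcf7, -0.56 for S1pr1 and -1.12 for Lef1, from 1 library each. The signs within the batch and over all libraries were opposite for Klf2, Foxp1 and Ccr7.

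**Figure D2:**
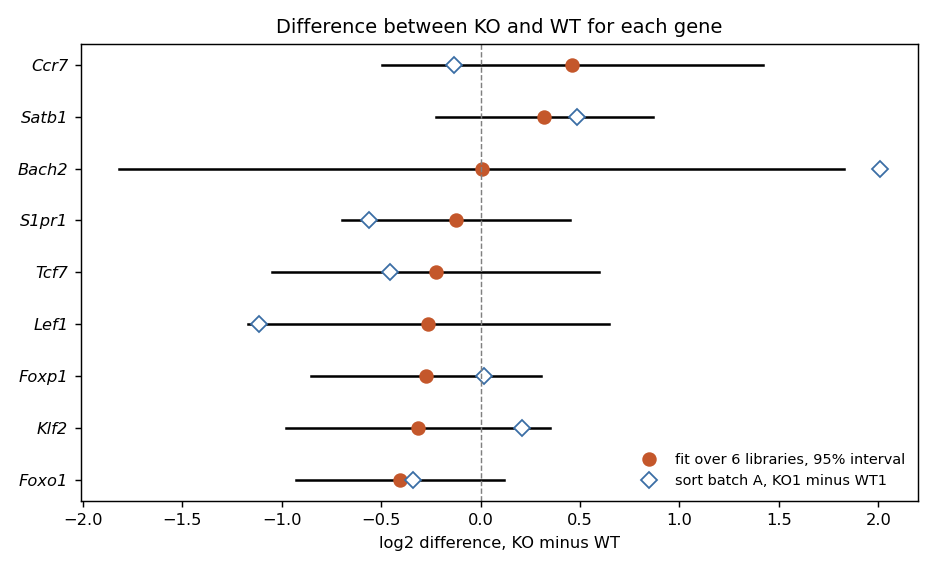
Log2 difference between KO and WT for each gene (horizontal axis), as the edgeR estimate over 6 libraries with its 95% interval (filled circle and line) and as the difference between the library labelled KO1 and WT1 in sort batch A (open diamond, 1 library each). All 9 intervals include 0; that of Bach2, -1.82 to 1.83, is the widest, and its diamond at 2.01 lies outside it.

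In the authors' deposited table, 0 of the 9 genes had an adjusted p under 0.05, where 325 of 13509 rows with an adjusted p did. The smallest in that table was that of Satb1, with a log2 fold change of 0.53 (SE 0.29) and an adjusted p of 0.389. For Lef1 the authors' deposited table gave 0.22 (SE 0.53), of opposite sign to the -0.26 above, and for Bach2 it gave -0.09 (SE 0.82). For the other 6 genes the sign was the same as here. DESeq2 run here with genotype as the only term gave -0.26 for Lef1 and 0.32 for Satb1. The authors' values thus differ from both fits made here, and the cause was not tested.

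Levels of different genes were compared only per length, as CPM per kilobase of the longest coding transcript in GENCODE M21. In WT, Foxo1 stood at 69.2 ± 21.8 CPM per kilobase, Klf2 at 49.9 ± 15.5, Ccr7 at 41.4 ± 14.7, Foxp1 at 35.2 ± 12.9 and Tcf7 at 28.8 ± 9.68 CPM per kilobase (SD, n = 3). Satb1 at 23.7 ± 7.24, Lef1 at 22.8 ± 9.41 and S1pr1 at 19.6 ± 2.03 CPM per kilobase followed, and Bach2 was last at 2.71 ± 3.27 CPM per kilobase. Each neighbouring pair in this order overlapped in its WT libraries except S1pr1 and Bach2, of which S1pr1 did not go below 17.3 and Bach2 not above 6.46 CPM per kilobase. With merged exons as the length Satb1 came after S1pr1, at 12.9 CPM per kilobase. Which transcripts the authors counted was not given in the sources used here, so the order holds for these lengths only.

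**Figure D3:**
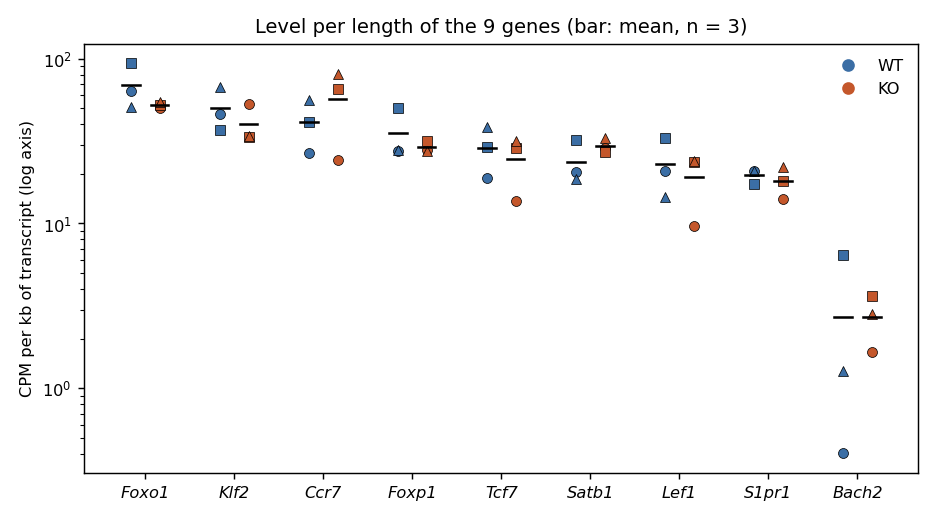
Level per kilobase of the longest coding transcript (log axis, CPM per kb) in each library of WT and KO, with circles, squares and triangles for pools 1, 2 and 3 and the mean as a bar. In WT the order runs from Foxo1 at 69.2 to Bach2 at 2.71 CPM per kb, and Bach2 lies below the other 8 genes in every library.

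The 9 genes did not vary as a block between pools. Of the 36 pairs, 22 had a positive Pearson r of log2 CPM over the 6 libraries, with a median of 0.27. After the group means were taken out, 22 were again positive, with a median of 0.28. These values describe 6 libraries, some of which share a batch. Tcf7 and Ccr7 kept together, with r of 0.85 over the libraries and 0.99 within groups. Each was lowest in WT1 among WT, lowest in the library labelled KO1 among KO, and highest in WT3 and KO3. Foxo1 and Foxp1 were the other pair above 0.8 by both measures (0.89 and 0.90), and both were highest in WT2. Klf2 ran against Lef1, at -0.74 over the libraries and -0.97 within groups. Klf2 had a negative r with each of the other 8 genes both ways, including Foxo1 (-0.35 and -0.79) and S1pr1 (-0.10 and -0.27).

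Some of this order followed single libraries. WT2 was the highest library in 4 of the 9 genes (Lef1, Bach2, Foxo1 and Foxp1), against 25.3% of all genes, and stood at 1.87, 7.71, 1.63 and 1.80 times the mean of WT1 and WT3 in these. The library labelled KO1 was the lowest in 5 of the 9 (Tcf7, Lef1, Foxo1, Ccr7 and S1pr1), against 14.9% of all genes, and stood at 0.458, 0.406 and 0.332 times the mean of KO2 and KO3 in Tcf7, Lef1 and Ccr7. Both libraries of sort batch A were the lowest of the 6 in Tcf7 and Ccr7, 2 of the 9, against 7.33% of all genes. KO2 and KO3 lay within a ratio of 0.808 to 1.29 in all 9 genes. The spread within WT was larger than within KO in 7 of the 9, near the 70.4% of all genes. The part of sort batch, RNA integrity or pool in these differences was not tested.

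**Figure D4:**
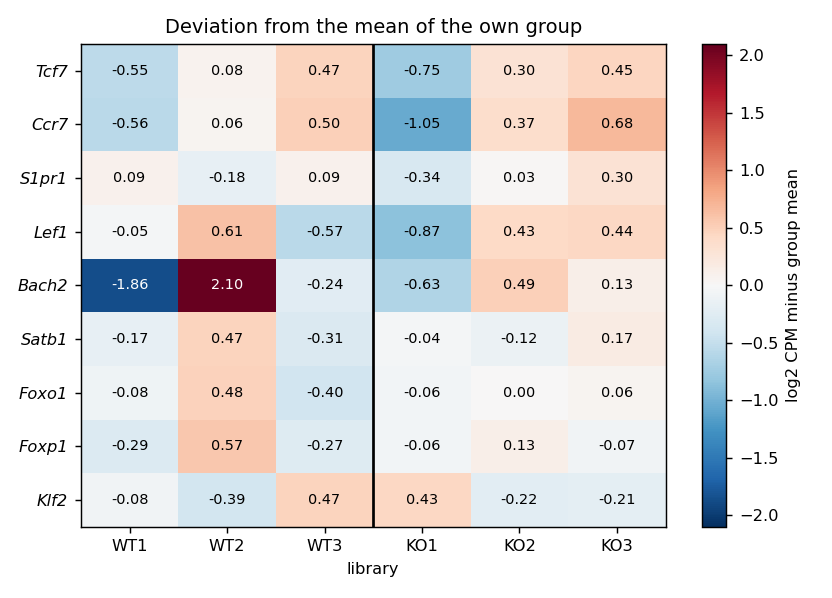
Deviation of each library from the mean of its own group in log2 CPM (prior count 2), with genes in rows and libraries in columns; red is above and blue below the group mean. Tcf7 and Ccr7 share the same order within each group, Klf2 shows the opposite sign to Lef1 in WT2, WT3 and all KO libraries, and Bach2 spans the widest range, from -1.86 in WT1 to 2.095 in WT2.

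Other genes whose level ran closest to that of a member were sought among 5819 genes above 20 CPM, as Pearson r over the 6 libraries. They were Mark4 (0.99), Psmd8 (0.98) and Tshz1 (0.97) for Tcf7, Tob1 (0.99), Irf1 (0.98) and Kbtbd11 (0.98) for Lef1, and Ube2o (0.98), Zfp410 (0.95) and Mapkapk5 (0.95) for Satb1. For Klf2 they were Sft2d1, Bod1l and Nudcd3 (0.997, 0.99 and 0.99), for Foxo1 Abhd17c, Rnf19a and Rgl2 (0.997, 0.99 and 0.99) and for Foxp1 Atp11b, Dyrk1a and Adam10 (each 0.99). For Ccr7 they were Sik3, Sun1 and Coro1b (0.99, 0.98 and 0.98) and for S1pr1 Fam53b and Camsap1 (each 0.98). With this many genes and 6 libraries, values of this size are a description of the libraries.

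The remaining genes of these pathways were taken from 7 lists. Of their 138 distinct tested genes, 0 were called in either direction by edgeR, 14 were under 0.05 by unadjusted p, near the 9.37% of all genes, and DESeq2 called 3, near its 1.89% of all genes. Those 3 were Foxp4, Maff and S100a6, all higher in KO. Of 24 other resting and central genes 9 were above 0 in log2 fold change, the median was -0.18, and 1 had an unadjusted p under 0.05. That was Ms4a4b, a membrane protein of the MS4A family found in T cells, at 58.0, 53.4 and 53.2 CPM in WT and 35.9, 40.5 and 31.1 CPM in KO, with groups apart and a log2 fold change of -0.61 (SE 0.25, edgeR, adjusted p = 0.505). Slamf6, a SLAM-family receptor, marks TCF1-expressing T cells. Its level was 73.4 ± 10.4 CPM in WT against 50.1 ± 9.32 CPM in KO, again without overlap. Of the 24 genes, 3 lay apart with KO below and 0 with KO above, against 8.01% and 9.68% of all genes. Il6ra, the interleukin-6 receptor chain, was at 36.9 ± 14.7 against 61.8 ± 25.4 CPM and Cd28, the costimulatory receptor, at 1213 ± 113 against 1015 ± 111 CPM (SD, n = 3). The most abundant were Cd28, the anti-proliferative gene Btg1 at 1377 ± 215 against 1473 ± 149 CPM and the transcription factor Ets1 at 1090.5 ± 44.2 against 1054 ± 27.3 CPM.

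Effector and tissue genes are known to run opposite to the resting programme. Over 31 tested genes their median log2 fold change was 0.01. Of these, 16 were positive and 3 had an unadjusted p under 0.05 (edgeR), near the 9.37% of all genes. The groups lay apart with KO above in 3 and with KO below in 2, against 9.68% and 8.01% of all genes. S100a6, a calcium-binding protein high in activated T cells, had 102, 66.2 and 104 CPM in WT against 144, 178 and 181 CPM in KO, so that the groups did not overlap (log2 fold change 0.89, SE 0.23, edgeR, adjusted p = 0.408), and DESeq2 called it (adjusted p = 0.0421). S100a4, of the same family, was at 97.0 ± 50.9 against 173 ± 21.4 CPM, the costimulator Tnfrsf4 (OX40) at 289 ± 66.7 against 469 ± 142 CPM and the transcriptional regulator Id2 at 176 ± 30.0 against 242 ± 23.1 CPM (SD, n = 3). The most abundant members, Ctla4 at 2821 ± 357 against 2652 ± 127 CPM, Icos at 1950 ± 250 against 1908 ± 214 CPM and Bhlhe40 at 1761 ± 67.7 against 1972 ± 223 CPM, overlapped between the groups.

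Among 20 tested paralogs and regulators of FOXO1 and FOXP1, 8 had a positive log2 fold change and the median was -0.01. Foxp4, a paralog of Foxp1, had 50.7, 53.8 and 38.9 CPM from WT1 to WT3 against 89.6, 114 and 110.0 CPM in the KO libraries. The groups were apart, and the log2 fold change was 1.13 (SE 0.24). EdgeR did not call it (adjusted p = 0.384) and DESeq2 did (adjusted p = 0.00154). The kinase genes Akt1, at 21.9 ± 7.98 against 46.7 ± 3.55 CPM, and Akt2, at 23.2 ± 1.95 against 38.6 ± 8.06 CPM (SD, n = 3), whose products export FOXO1 from the nucleus, also lay apart. Neither was called by edgeR (adjusted p = 0.436 for Akt1 and 0.511 for Akt2). Over the 20 genes the groups lay apart with KO above in 4 and with KO below in 3, against 9.68% and 8.01% of all genes. Ywhaz, named next, was among those with KO below. The abundant members were the 14-3-3 genes Ywhaz, at 1249 ± 167 against 956 ± 70.7 CPM, and Ywhae, at 248 ± 47.8 against 207 ± 23.6 CPM, whose products hold FOXO proteins in the cytoplasm, and the PI3K subunit Pik3r1 at 279 ± 87.3 against 224 ± 10.3 CPM.

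Of 17 tested partners of TCF1 and LEF1, 6 were positive and the median was -0.12. Gsk3b, which encodes a kinase that marks β-catenin for breakdown, had 208, 277 and 240.0 CPM in WT against 173, 174 and 157 CPM in KO, without overlap (log2 fold change -0.53, SE 0.19, edgeR, adjusted p = 0.487). Jup, encoding plakoglobin, was at 9.59 ± 3.47 against 3.50 ± 2.13 CPM, Hdac2, a histone deacetylase, at 34.6 ± 8.26 against 21.99 ± 5.61 CPM, and Axin1, a scaffold of the β-catenin destruction complex, at 71.3 ± 9.08 against 90.7 ± 11.4 CPM. Ctnnb1, which encodes β-catenin itself, was at 161 ± 24.4 against 156 ± 9.42 CPM and the co-repressor Tle3 at 161 ± 44.5 against 128 ± 22.01 CPM (SD, n = 3).

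In the list of relatives of BACH2, SATB1 and KLF2, 8 of 20 genes were positive and the median was -0.16. Mapk7, the kinase gene upstream of the Klf2 promoter shown above, had 10.4, 1.64 and 5.73 CPM in WT against 9.62, 17.0 and 21.6 CPM in KO, with WT1 above the library labelled KO1 (log2 fold change 1.44, SE 0.69, edgeR, adjusted p = 0.549). Mef2d, the most abundant MEF2 gene of the list, was at 389 ± 26.5 against 461 ± 85.5 CPM. Maff, which encodes a small MAF protein of the kind that pairs with BACH2, had 10.9, 9.04 and 12.7 CPM in WT against 24.8, 29.9 and 32.5 CPM in KO, without overlap (log2 fold change 1.41, SE 0.37), not called by edgeR (adjusted p = 0.407) and called by DESeq2 (adjusted p = 0.00320). Klf7 was at 140 ± 33.2 against 95.003 ± 4.78 CPM, Klf6 at 1703 ± 355 against 1349 ± 136 CPM, and the co-repressor Ncor1 at 706 ± 111 against 584 ± 21.6 CPM (SD, n = 3).

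For the receptors themselves, 4 of 15 tested genes of sphingosine-1-phosphate signalling and egress were above 0 in log2 fold change (median -0.10), as were 4 of 16 genes around CCR7 (median -0.09). Sphk2, which encodes a sphingosine kinase, had 21.7, 11.9 and 12.8 CPM in WT against 31.1, 30.7 and 33.7 CPM in KO, without overlap (log2 fold change 1.04, SE 0.37, edgeR, adjusted p = 0.487). Grk2, a kinase that desensitises S1PR1, was at 89.6 ± 14.0 against 121 ± 9.62 CPM, Rgs1 at 1853 ± 122 against 1471 ± 178 CPM, Rgs2 at 633 ± 20.5 against 779 ± 62.9 CPM and the phosphatase gene Sgpp2 at 12.0 ± 15.1 against 2.36 ± 0.949 CPM. Cd69, whose product pulls S1PR1 from the cell surface, was at 369 ± 170 against 344 ± 49.3 CPM. Around CCR7, the chemokine receptor Cxcr4 was at 549 ± 150 against 359 ± 45.9 CPM and overlapped, the integrin chain Itgal at 399.6 ± 63.1 against 285 ± 25.3 CPM, the G protein subunit Gnb2 at 31.4 ± 7.80 against 51.2 ± 4.37 CPM, and Rassf5, which links chemokine signals to integrins, at 116 ± 21.9 against 88.1 ± 2.62 CPM. Dock2 and Rac2, which drive chemokine-guided movement, were at 498 ± 74.9 against 465 ± 39.8 CPM and at 498 ± 213 against 463 ± 53.2 CPM (SD, n = 3). Of the CCR7 ligand genes, Ccl21a had 0 counts in all libraries and Ccl19 did not pass the filter on low counts.

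**Figure D5:**
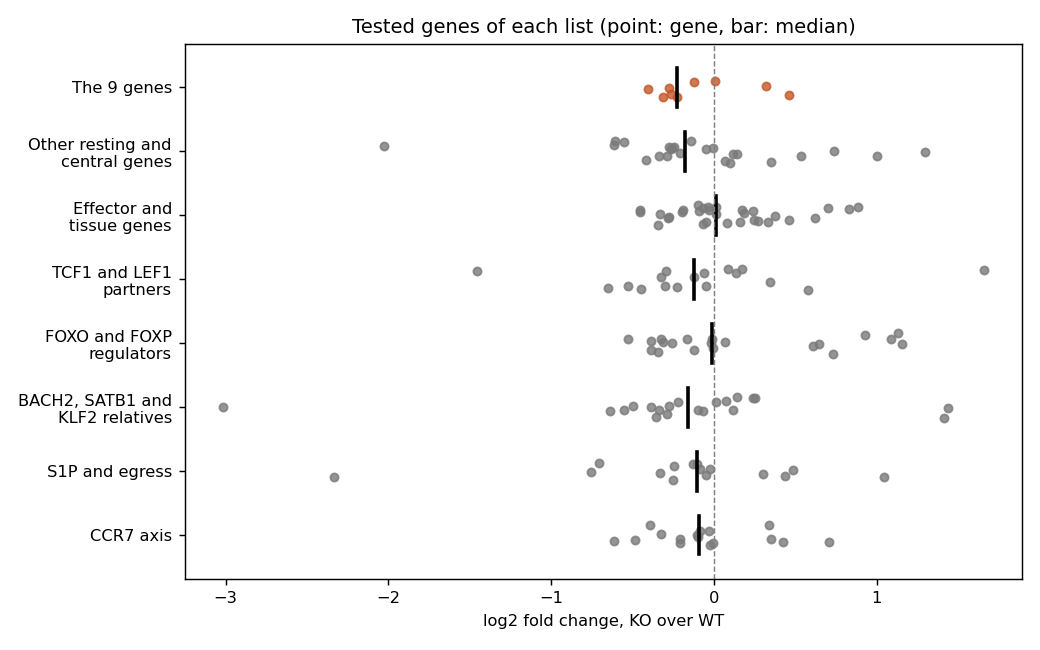
Log2 fold change of KO over WT (horizontal axis) for the tested genes of the 9-gene set and of the 7 pathway lists, 1 point a gene, with the median as a bar. The medians lie between -0.23 and 0.01, and each list has genes on both sides of 0.

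Marker lists of other cells were read by their summed level in each library. The summed level of 10 B cell markers (B cells use Bach2, Foxo1, Foxp1 and Ccr7) was 7.26 to 29.0 CPM in WT and 21.5 to 29.8 CPM in KO. Only 5 of them passed the filter, Pax5 not among them, and 4 of these were positive. Its most abundant members were Cd79b, at 1.96 ± 2.41 against 12.0 ± 4.69 CPM with groups apart, and Cd79a, at 6.28 ± 9.50 against 1.83 ± 0.429 CPM (SD, n = 3). Of 12 endothelial markers (endothelium uses Klf2 and S1pr1) 2 passed the filter and 5 had 0 counts in all libraries, Kdr, Emcn, Plvap, Tek and Flt4. Their sum, 35.0 to 73.1 CPM in WT and 44.8 to 53.7 CPM in KO, was mostly Pecam1 (52.1 ± 18.4 and 46.5 ± 4.21 CPM), which leukocytes also use, and Vwf was at 1.01 ± 0.916 against 1.64 ± 0.915 CPM. Dendritic cell markers (migratory dendritic cells use Ccr7) summed to 29.0 to 51.3 CPM in WT and 44.3 to 71.5 CPM in KO. Of these 10 genes 6 were tested and 3 were positive, Itgax was at 7.48 ± 5.10 against 29.0 ± 15.01 CPM, without overlap, and Zbtb46 at 11.3 ± 3.95 against 13.6 ± 2.39 CPM (SD, n = 3), with overlap. Markers of other T, NK and innate lymphoid cells (conventional T cells use the member genes) summed to 149 to 227 CPM in WT and 124 to 140 CPM in KO, so that the sums did not overlap. Of the 8 tested, 4 were positive and 0 were called. Cd40lg, a ligand made by activated helper T cells, was at 89.2 ± 13.1 against 49.2 ± 19.2 CPM, without overlap (edgeR, adjusted p = 0.487). It gave 81.5 to 104 CPM of the sums in WT and 28.8 to 66.9 CPM in KO, and without it the sums overlapped. Il17a was at 41.8 ± 22.2 against 42.5 ± 16.1 CPM (SD, n = 3), with overlap.

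Macrophage markers summed to 244 to 364 CPM in WT and 352 to 679 CPM in KO, with 11 of 12 positive and 0 called. An unadjusted p under 0.05 (edgeR) was found for 6 of the 12, against 9.37% of all genes. In 4 of the 12 the groups lay apart with KO above, against 9.68% of all genes. The most abundant, Lyz2 at 59.95 ± 27.6 against 126 ± 77.1 CPM and Csf1r at 54.2 ± 14.4 against 65.0 ± 17.2 CPM (SD, n = 3), overlapped between the groups. Epithelial markers summed to 22.3 to 47.2 CPM in WT and 66.0 to 150 CPM in KO, without overlap, with 9 of 12 tested genes positive and 1, Fcgbp, called (edgeR, adjusted p = 0.0169). Leaving out any WT library or KO3 ended that call, with edgeR adjusted p of 0.227, 0.125 and 0.134 for WT1 to WT3 and 0.0811 for KO3, as did limma-voom (adjusted p = 0.183), RNA integrity as a covariate (0.107) and KO2 and KO3 summed (0.0640). No WT library was above 0.103 CPM and no KO library below 14.3 CPM. The fitted log2 fold change was 9.91, with 9.20 to 12.13 when 1 library was left out. Fcgbp was at 0.0343 ± 0.0593 against 33.8 ± 17.3 CPM and Clca1 at 0.948 ± 0.826 against 39.9 ± 15.5 CPM. In the library labelled KO1 they gave 14.3 and 24.3 CPM of the summed 66.0 CPM. In KO2 they gave 47.0 and 55.2 of 150 CPM, and in KO3 40.2 and 40.1 of 132 CPM. Without these genes the epithelial sums of the groups overlapped. Clca1, with groups apart, was not called in the main fit (edgeR, adjusted p = 0.306). It was called by edgeR without a filter (adjusted p = 0.0285) and by DESeq2 (adjusted p = 1.7e-07). Of the 12 tested epithelial genes, 4 had an unadjusted p under 0.05 (edgeR), against 9.37% of all genes. In 4 of the 12 the groups lay apart with KO above, against 9.68% of all genes. Plasma cell markers (2 of 8 positive) summed to 2647 to 10048 CPM in WT and 3326 to 3851 CPM in KO, mostly Igha, at 3552 ± 2112 against 1881 ± 222 CPM, and Igkc, at 1968 ± 1241 against 1114 ± 108 CPM. Stromal markers (2 of 8 positive) summed to 18.4 to 28.8 CPM in WT and 5.66 to 13.7 CPM in KO, again without overlap, with Col1a1 at 9.12 ± 7.01 against 3.29 ± 2.74 CPM and Col3a1 at 6.01 ± 5.44 against 1.52 ± 0.442 CPM. Of the 9 Treg identity genes 3 were positive, and Ptprc was at 1436 ± 106 against 1150 ± 132 CPM.

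Genes induced by heat shock or cell isolation summed to 7491 to 11225 CPM in WT and 6566 to 7950 CPM in KO, and 1 of 9 was positive. An unadjusted p under 0.05 (edgeR) was found for 3 of the 9, against 9.37% of all genes, and 0 were called. Atf3 lay apart with KO below and Junb with KO above, 1 of 9 each way, against 8.01% and 9.68% of all genes. Hspa1a was at 2064 ± 755 against 1142 ± 332 CPM, Hspa1b at 1725 ± 711 against 931 ± 303 CPM, Atf3 at 167 ± 16.2 against 115 ± 14.8 CPM, Junb at 542 ± 121 against 743 ± 72.0 CPM and Fosb at 1844 ± 288 against 1732.5 ± 286.9 CPM (SD, n = 3). The part of these other cells and of isolation in the levels of the 9 genes was not tested.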

How the data were processed

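The deposited table held estimated counts per gene and library, rounded to whole numbers by the authors and read as not normalized, beside their mean normalized signal, p-values (raw and adjusted), score of the test and log2 fold change with its standard error, per the file headers. Tools named in the submitters' processing notes are Salmon 1.4.0, fastp 0.20.0, DESeq2 1.34.0 and R 4.1.2. The build, the annotation, the use of strand and how transcripts became genes were not given in the sources used here. Per the labels' protocols, RNA was amplified with the Ovation V2 kit, which can lose rare transcripts. A second table's 6 columns of values match no sample name and were not used. Rows sharing an Entrez identifier were summed (32161 rows, 32090 genes).

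Low genes were removed by filterByExpr (minimum count 10 and total 15), and the rest scaled by TMM and tested over all 12557 genes by edgeR 4.0.16 (R 4.3.3, quasi-likelihood test), genotype as the only term, Benjamini-Hochberg threshold 0.05. The fit was tested on simulated data. The standard error is the log2 fold change divided by the square root of F. Alternatives used limma 3.58.1 and DESeq2 1.42.0. The members and 17 gene lists were chosen with earlier results of these data known, and lists were described by counts and medians. Named in each pathway or quality list are the called genes, or else the 4 of smallest p, and the 3 most abundant, and in each marker list the called and the 2 most abundant. Likeness was sought for members above 50 CPM. Some genes that these rules name are not reported here.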

Additional observations from a re-analysis of the deposited data

How the results depend on the processing

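None of the 9 genes was called under any of the 17 alternatives, with the smallest adjusted p of 0.302 for Klf2. Satb1 and Ccr7 stayed positive and Klf2 and Foxo1 negative in all 17. The sign turned for Tcf7 (0.083), Lef1 (0.20) and S1pr1 (0.0017) in limma-voom with quality weights, for Lef1 (0.060) and Foxp1 (0.069) with RNA integrity as a covariate, and for Bach2 with library size alone (-0.011), the stricter filter (-0.0020) and KO2 and KO3 summed (-0.13), as log2 fold changes. The cause was not tested. With 1 library left out, the log2 fold change ran from -0.46 to 0.054 for Tcf7, -0.50 to 0.093 for Lef1, -0.50 to 1.67 for Bach2, -0.42 to 0.055 for Foxp1 and -0.28 to 0.022 for S1pr1. Bach2 was at 1.67 with RNA integrity as a covariate.

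Titles give WT and KO the same numbers, but same-numbered libraries did not deviate together (correlation over genes 0.01, 0.05 and 0.03), so the numbers were not taken to pair the groups. Number 1 alone also marks a shared sort batch, A. With the replicate block 3 genes were called and 0 of the 9, with log2 fold changes of -0.25 for Tcf7, 0.79 for Bach2 and 0.36 for Ccr7.

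Over all genes, 3 were called (2 higher, 1 lower in KO). Counts were 9 (8 higher) without a filter, 255 (164 higher, 91 lower) with DESeq2, and 0 higher and 2 lower in limma-voom. With RNA integrity as a covariate and with KO2 and KO3 summed, 1 gene was called, 1 higher and 0 lower. With 1 library left out counts ran from 1 to 4 (1 to 3 higher, 0 to 1 lower). Ctse was not called without WT1, WT2, WT3 or KO3 (adjusted p = 0.227, 0.125, 0.159 and 0.0811), with RNA integrity (0.107) or with KO2 and KO3 summed (0.0640), and Xist not in limma-voom (0.192). Their log2 fold changes ran from -4.04 to -3.39 and from 13.30 to 15.25 with 1 library left out.

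Of other genes, Icos turned to 0.010 with upper-quartile scaling, to 0.013 without a filter, to 0.070 in limma-voom and to 0.026 with RNA integrity as a covariate. Csf1r (-0.012) and Col3a1 (0.60) turned in limma-voom, Il17a (-0.0084) with sort batch as a term and Cd69 (0.36) with RNA integrity. With 1 library left out, values crossed 0 for Btg1 (-0.025 to 0.18), Cd69 (-0.32 to 0.33), Cd79a (-2.35 to 1.19), Ctnnb1 (-0.16 to 0.067), Fosb (-0.22 to 0.032), Icos (-0.13 to 0.054), Il17a (-0.29 to 0.54), Pecam1 (-0.41 to 0.13) and Rac2 (-0.41 to 0.21). The lowest count of a member in any library was 38, for Bach2 in WT1, and the part of depth was not tested.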
